A study of Mus musculus with 4 samples.

Results

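The genes described here are 10 regulators and targets of YAP and TEAD, of 51905 genes listed in the deposited tables. They were chosen by name. Yap1 and Wwtr1 (the gene of TAZ) encode the coactivators, and Tead1 and Tead4 encode the DNA-binding factors that the coactivators need. Amotl2 and Lats2 encode inhibitors, Ajuba encodes a LIM protein that binds LATS kinases, and Ankrd1, Ctgf (now Ccn2) and Cyr61 (now Ccn1) are targets in common use as a readout. All 10 were found under their symbols and had enough counts to be tested.

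In the Hippo pathway, the kinases MST1 and MST2 (genes Stk4 and Stk3) activate the LATS kinases, which phosphorylate YAP and TAZ and keep them out of the nucleus. When LATS is inactive, as in sparse or spread cells, YAP and TAZ enter the nucleus, bind TEAD factors and switch on genes such as Ctgf, Cyr61 and Ankrd1. Lats2 and Amotl2 are themselves targets, which closes a negative feedback loop. In the gut, YAP is known for its role in regeneration of the epithelium and in colorectal tumors. Because YAP and TAZ are controlled mainly by phosphorylation, the mRNA levels of Yap1 and Wwtr1 say little about their activity, and protein was not measured in these files.

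RNA was sequenced from CT26 and MC38 cells, mouse colon tumor lines from BALB/c and C57BL/6 mice, infected with a lentivirus carrying shGFP (the control hairpin) or shmaurka-1 (a hairpin against mouse Aurora-A, gene Aurka). Infected cells of all 4 groups had been selected with puromycin, were passaged before use and were collected 48 h after seeding. CT26 was grown in RPMI medium and MC38 in high-glucose DMEM with added HEPES and amino acids, so line, strain and medium cannot be told apart. Each group was 1 library and the knockdown rests on 1 hairpin, so within a line there is no replicate, and a difference between lines is replicated only over the 2 viruses. Whether the groups came from separate cultures was not stated.

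The libraries held between 22207769 and 23752267 fragments, so depth differed by at most 1.07-fold. Aurka, the gene targeted, was lower with shmaurka-1 in CT26 (5724 and 1093 fragments with shGFP and shmaurka-1) and in MC38 (2300 and 413), the direction the labels give. The labels call CT26 a fibroblast and MC38 an epithelial cell. The fibroblast markers Vim (241 to 383 FPKM, fragments per length of transcript and size of library) and Fn1 (227 to 397 FPKM) were high in all 4 libraries and Col1a1 was lower (13.8 to 20.3 FPKM), while Thy1 (1 to 5 fragments) and Lum (22 to 45 fragments) were low in both lines. The summed level of 10 fibroblast markers was 921 and 930 FPKM in CT26 and 572 and 578 FPKM in MC38. Epithelial markers went against the label of MC38, since 12 of them summed to 1.43 and 1.10 FPKM there and to 43.8 and 43.2 FPKM in CT26. Most of the latter came from the keratin genes Krt18 (1516 and 1485 fragments in CT26, 12 and 14 in MC38) and Krt20 (434 and 205 in CT26, 2 and 0 in MC38), while villin (Vil1) had fragments in MC38 only (38 and 29). The epithelial adhesion genes Epcam (at most 1 fragment in any library) and Cdh1 (at most 6) were at or near 0 in both lines. Leukocyte markers summed to between 1.49 and 4.34 FPKM over 6 genes, with Cd3e at 0 in every library, Cd79a at 0 in CT26 and at 30 and 24 fragments in MC38, and Csf1r at 9 to 39 fragments, and endothelial markers to between 0.558 and 1.70 FPKM over 4 genes. Col1a2 (12156 and 11459 fragments in CT26, 1426 and 1396 in MC38) and Pdgfrb (2247 and 2240, 1312 and 1625) were higher in CT26, while Pdgfra (219 and 186, 770 and 499), the macrophage gene Lyz2 (37 and 31, 98 and 69) and the endothelial Cdh5 (24 and 25, 173 and 81) were higher in MC38. Of these markers Krt20 was called lower in the knockdown (edgeR adjusted p = 0.0140), with a log2 fold change of -0.97 for CT26, on which the call rests given the 2 and 0 fragments of MC38. For Krt20, limma-voom gave an adjusted p of 0.0331 and DESeq2 gave none. These marker sums move with the line, as do the levels of the 10 genes, and their part in that difference was not tested.

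TEAD factors bind the motif GGAATG, so the promoters in RefSeq (build GRCm38.p6) were searched for it on both strands. The window was 300 bases, with 250 before and 50 after the transcription start. Entries were found for 7 of the 10 genes, with 9 windows because Wwtr1 and Lats2 have more than 1 start. Tead1, Tead4 and Ctgf had no entry in the promoter set searched, although RefSeq gives positions for these genes. Each of the 7 genes had the motif in at least 1 window, as did 16.6% of all 27025 genes with an entry (14.7% of 32851 windows). Ajuba and Ankrd1 held 2 copies each, which 1.36% of all windows did. The AP-1 motif TGANTCA, which often lies beside TEAD sites in distant enhancers, was in none of the 9 windows and in 7.81% of all windows. A match is a description of the letters and does not show that a factor binds there. The 250 bases before the start are printed for a regulator pair and a target pair whose levels differed widely between the lines. They read 5′ to 3′ on the gene's strand, and capitals mark the TEAD motif, which reads CATTCC where it lies on the opposite strand.
Amotl2, chr9:102717554-102717803, plus strand: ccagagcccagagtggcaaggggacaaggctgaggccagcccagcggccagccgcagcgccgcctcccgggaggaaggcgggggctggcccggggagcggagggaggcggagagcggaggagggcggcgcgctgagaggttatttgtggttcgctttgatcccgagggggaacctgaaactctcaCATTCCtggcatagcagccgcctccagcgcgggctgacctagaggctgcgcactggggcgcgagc
Ajuba, chr14:54577662-54577911, minus strand: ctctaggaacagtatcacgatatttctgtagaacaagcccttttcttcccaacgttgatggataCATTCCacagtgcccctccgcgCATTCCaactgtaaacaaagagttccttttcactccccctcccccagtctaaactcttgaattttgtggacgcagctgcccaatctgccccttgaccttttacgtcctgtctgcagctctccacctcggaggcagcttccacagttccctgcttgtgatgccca
Ankrd1, chr19:36119845-36120094, minus strand: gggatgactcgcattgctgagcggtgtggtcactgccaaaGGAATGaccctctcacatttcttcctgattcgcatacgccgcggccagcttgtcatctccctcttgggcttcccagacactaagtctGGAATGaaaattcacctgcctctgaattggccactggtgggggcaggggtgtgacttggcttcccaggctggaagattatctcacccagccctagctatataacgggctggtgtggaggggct
Cyr61 (Ccn1), chr3:145649986-145650235, minus strand: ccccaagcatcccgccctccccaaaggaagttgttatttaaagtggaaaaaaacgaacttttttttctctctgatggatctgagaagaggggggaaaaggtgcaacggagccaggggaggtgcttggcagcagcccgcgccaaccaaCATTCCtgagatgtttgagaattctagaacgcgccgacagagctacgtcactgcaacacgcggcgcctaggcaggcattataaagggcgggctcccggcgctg

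Counted from the start, where the first transcribed base is 1 and the base before it is -1, the copies of Ankrd1 begin at -210 and -123, and both lie on the gene's own strand. In Ajuba they begin at -186 and -164, both on the opposite strand. The copy of Amotl2 begins at -65 and that of Cyr61 at -103, also on the opposite strand. Yap1 and Wwtr1 carry 1 copy per window on their own strand, beginning at -141 in Yap1 and at -136 or -170, by the start used, in Wwtr1. In Lats2 the copy lies after the start in 1 of its 2 windows, from base 5. The window of Amotl2 lies inside the span that RefSeq gives for the gene, downstream of its first base.

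Line against line, all 10 genes were higher in CT26 than in MC38. The difference was smallest for the coactivators (1.38-fold for Yap1, 1.42-fold for Wwtr1) and larger for the TEAD genes (1.90-fold for Tead4, 3.03-fold for Tead1) and Ajuba (3.50-fold). It was largest for the inhibitors (5.66-fold for Lats2, 10.8-fold for Amotl2) and the targets (7.76-fold for Cyr61, 10.7-fold for Ankrd1, 38.2-fold for Ctgf). The test was edgeR's quasi-likelihood test of line, with virus as a block, over 4 libraries and 14013 genes. At an adjusted p under 0.05 (Benjamini-Hochberg) it called 36.4% of all genes higher in CT26 and 39.6% lower, and of the 10 genes it called 10 higher and 0 lower. Calls were thus common in both directions. More than 4-fold higher in CT26 were 5 of the 10 genes and 7.43% of all genes, a size chosen after the values were seen. The median log2 difference was 2.15 over the 10 genes and -0.04 over all genes tested. When libraries were scaled to their total counts instead of by TMM (a scaling that assumes most genes do not differ), line differences fell by 0.34 on the log2 scale (median) and the median of all genes moved to -0.38. Then 3597 genes were called higher and 7148 lower, against 5106 and 5549 with TMM, and 8 of the 10 genes were called, without Yap1 and Wwtr1. In a bulk sample, fewer cells that express a gene and less RNA per cell cannot be told apart.

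**Figure D1:**
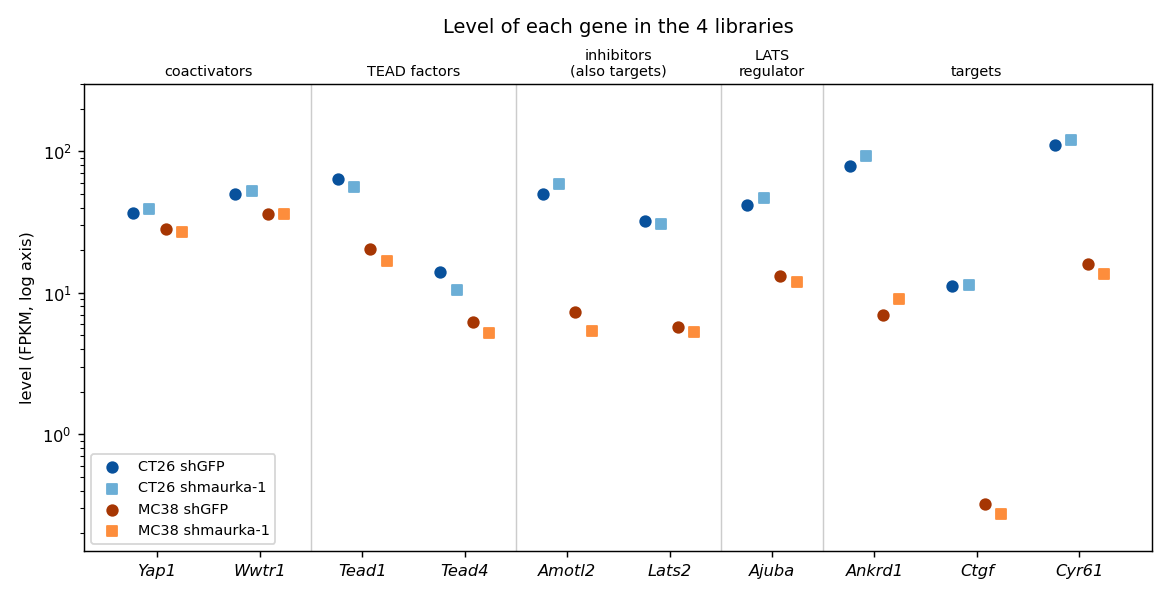
Level of each of the 10 genes (FPKM, log axis) in CT26 shGFP, CT26 shmaurka-1, MC38 shGFP and MC38 shmaurka-1, grouped by role; each point is 1 library and there are no error bars. For each gene both CT26 points lie above both MC38 points, narrowly for Yap1 and Wwtr1 and by the widest gap for Ctgf, which stood at 0.320 and 0.272 FPKM in MC38.

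In FPKM, a level per length that can be compared between genes, both CT26 libraries were above both MC38 libraries for 10 of the 10 genes, as for 41.0% of all genes tested. The order of the genes differed between the lines. In CT26, the secreted target Cyr61 stood at the top (110 and 120 FPKM, shGFP and shmaurka-1) and Ankrd1 next (79.0 and 92.2 FPKM). Tead1, Amotl2 and Wwtr1 followed between 49.6 and 63.7 FPKM with overlapping values, then Ajuba, Yap1 and Lats2. Tead4 (14.0 and 10.5 FPKM) and Ctgf (11.2 and 11.4 FPKM) stood lowest and also overlapped. In MC38 the coactivators stood at the top instead, with Wwtr1 at 36.0 and 36.2 FPKM and Yap1 at 28.4 and 26.9 FPKM. Tead1, Cyr61 and Ajuba came next with no overlap between neighbours, while Ankrd1 overlapped Amotl2, Amotl2 overlapped Tead4, and Tead4 overlapped Lats2. The highest level was 9.82 and 11.4 times the lowest in the CT26 libraries and 113 and 133 times in the MC38 libraries, in each of which Ctgf was lowest.

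The coactivators were close between the lines. Yap1 (chromosome 9, 7931999 to 8004638 in GRCm38.p6) had 3124 fragments in CT26 shGFP, 2977 in CT26 shmaurka-1, 2917 in MC38 shGFP and 2661 in MC38 shmaurka-1. Its log2 difference (CT26 minus MC38) was 0.46 ± 0.10 (SE; edgeR adjusted p = 9.23e-06), with 0.39 within shGFP and 0.53 within shmaurka-1. Under total-count scaling it was 0.12 with an edgeR adjusted p of 0.266. Wwtr1 (chromosome 3, 57455644 to 57575910) had 4044, 3846, 3535 and 3480 fragments in the same order, a log2 difference of 0.50 ± 0.10 (edgeR adjusted p = 7.50e-07), and 0.16 under total-count scaling (edgeR adjusted p = 0.126). The call for this pair therefore held with TMM and not with total counts. Added together, Yap1 and Wwtr1 reached 86.0 and 91.5 FPKM in CT26 and 64.5 and 63.1 FPKM in MC38.

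Among the DNA-binding partners, Tead1 (chromosome 7, 112679356 to 112906784) was the more abundant, at 63.7 and 55.7 FPKM in CT26 and 20.5 and 16.9 FPKM in MC38. That is 4.56 and 5.28 times the level of Tead4 in CT26, and 3.29 and 3.22 times in MC38. Its fragments numbered 9269 and 6983 in CT26 and 3759 and 2966 in MC38, a log2 difference of 1.60 ± 0.10 (edgeR adjusted p = 1.71e-59), with 1.59 within shGFP and 1.61 within shmaurka-1. In both lines the shmaurka-1 library was the lower of the pair, and the ranges of the lines were far apart. Tead4 (chromosome 6, 128227143 to 128300813) had 1019 and 713 fragments in CT26 and 616 and 517 in MC38, a log2 difference of 0.93 ± 0.13 (edgeR adjusted p = 1.23e-11). The difference was 1.02 within shGFP and 0.83 within shmaurka-1. Here too shmaurka-1 was lower in each line.

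The inhibitors Amotl2 and Lats2 showed wide gaps. Amotl2 (chromosome 9, 102717091 to 102733418), an angiomotin that binds YAP and holds it at cell junctions and in the cytoplasm, had 6109 and 5988 fragments in CT26 and 722 and 683 in MC38. The log2 difference was 3.44 ± 0.11 (edgeR adjusted p = 3.96e-204). Lats2 (chromosome 14, 57689662 to 57746212), a kinase that phosphorylates YAP and TAZ, had 4161 and 3458 fragments in CT26 and 886 and 804 in MC38, a log2 difference of 2.50 ± 0.11 (edgeR adjusted p = 6.91e-111). The locus given for Lats2 also covers Xpo4 and other genes, which together had between 1577 and 1900 fragments in a library, with overlapping values in the lines. How overlapping reads were divided was not stated. Ajuba (chromosome 14, 54567469 to 54577661), which binds LATS kinases and restrains them, had 3586 and 3467 fragments in CT26 and 1339 and 1200 in MC38, a log2 difference of 1.81 ± 0.11 (edgeR adjusted p = 7.21e-63). Within shGFP and within shmaurka-1 alone, the log2 difference was 3.37 and 3.50 for Amotl2, 2.52 and 2.48 for Lats2 and 1.71 and 1.90 for Ajuba. For these 3 genes MC38 was far lower with either virus.

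The targets also differed widely. Ankrd1 (chromosome 19, 36111965 to 36119844), which encodes a nuclear and sarcomeric ankyrin repeat protein, had 3237 and 3420 fragments in CT26 and 346 and 444 in MC38, a log2 difference of 3.41 ± 0.12 (edgeR adjusted p = 1.02e-173). Cyr61 (chromosome 3, 145646971 to 145649985), which encodes a secreted matrix protein that binds integrins, had 5352 and 5160 fragments in CT26 and 928 and 782 in MC38, a log2 difference of 2.96 ± 0.11 (edgeR adjusted p = 1.12e-156). Both had MC38 libraries well below either CT26 library, with 3.51 within shGFP and 3.31 within shmaurka-1 for Ankrd1 and 2.82 and 3.09 for Cyr61.

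Ctgf (chromosome 10, 24595442 to 24598683), the other secreted matrix protein of this family and a common readout of YAP, had 554 and 508 fragments in CT26 and only 19 and 16 in MC38. Its log2 difference was 5.26 ± 0.24 (edgeR adjusted p = 9.86e-102), above that of 98.0% of the genes tested. Within shGFP it was 33.7-fold higher in CT26 (95% interval on the log2 scale 4.50 to 5.90, counting error only) and within shmaurka-1 38.5-fold (4.65 to 6.18). With so few fragments in MC38 the size depends on the scale, and FPKM with a pseudocount of 1 gave 3.25. The related targets Ctgf and Cyr61 were not in one ratio, because Cyr61 was 9.82 and 10.5 times the level of Ctgf in CT26 and 50.1 times in each MC38 library.

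Relative to the coactivator, the targets stood higher in CT26. The level of Cyr61 was 3.01 and 3.06 times that of Yap1 in CT26 and 0.563 and 0.508 times in MC38. The level of Ankrd1 was 2.17 and 2.35 times that of Yap1 in CT26 and 0.245 and 0.338 times in MC38. These are ratios of FPKM within a library, so the scaling between libraries does not enter them.

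The second comparison, knockdown against shGFP within each line, was read as a possible sign of a change in density and contact, which were not measured. No gene of the set passed the test. edgeR's quasi-likelihood test of the change common to both lines, with line as a block, called 0 of the 10 genes at an adjusted p under 0.05, where 2.38% of all genes were called (334 genes). At an unadjusted p under 0.05, 3 of the 10 genes passed (Tead1, Tead4 and Ankrd1), as did 1574 of 14013 genes. DESeq2 and limma-voom also called 0 of the 10, though DESeq2 gave no adjusted p for Ctgf. Within a line, with 1 library against 1 and no test, none of the 10 genes passed 1.5-fold or fell under 0.6-fold, the sizes the study used. Over all genes 10.4% did so in CT26 and 6.49% in MC38. These shares include genes with few counts, while all 10 genes had a mean of at least 50 counts. Among the 11545 other genes with such a mean, 684 did so in CT26 and 316 in MC38, which are smaller shares. Over the 10 genes the log2 fold changes had a median of 0.04 for CT26 and -0.12 for MC38. Over all genes tested it was -0.01 and 0.00, and Aurka stood at -2.27 and -2.44.

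**Figure D2:**
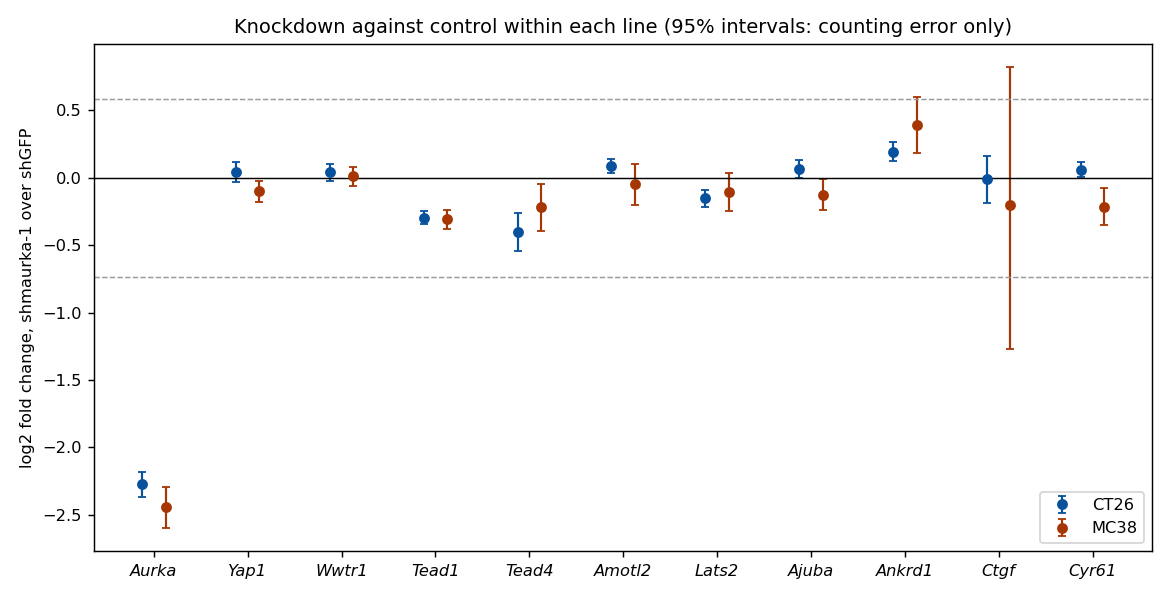
Log2 fold change of shmaurka-1 over shGFP for Aurka and the 10 genes in CT26 and MC38; each point compares 1 library with 1, bars are exact 95% intervals for counting error only, and dashed lines mark 1.5-fold and 0.6-fold. Aurka lies below -2 in both lines while the 10 genes lie between -0.40 and 0.39, and the wide bar of Ctgf in MC38 rests on 19 and 16 fragments.

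Tead1 came nearest to the threshold. On the log2 scale it gave -0.29 in CT26 (95% counting interval -0.34 to -0.25) and -0.31 in MC38 (-0.38 to -0.24). The deposited FPKM gave a smaller value of -0.19 for CT26. The common value of -0.30 ± 0.10 missed the threshold (edgeR adjusted p = 0.0576). Under total-count scaling the common value was -0.32 with an edgeR adjusted p of 0.0361, so this scaling called it. Tead4 gave -0.40 in CT26 (-0.54 to -0.26) and -0.22 in MC38 (-0.39 to -0.05), with a common value of -0.31 ± 0.13 (edgeR adjusted p = 0.276). The intervals of both TEAD genes lay below 0 in both lines, on counting error alone.

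Ankrd1 was the gene of the set with positive values in both lines whose intervals lay above 0. It gave 0.19 in CT26 (0.12 to 0.26) and 0.39 in MC38 (0.19 to 0.60), and the common value of 0.28 ± 0.11 did not pass (edgeR adjusted p = 0.237). Cyr61 gave 0.06 in CT26 (0.01 to 0.12) and -0.21 in MC38 (-0.35 to -0.08), with a common value of -0.06 ± 0.10 (edgeR adjusted p = 0.920). Ctgf gave -0.01 (-0.19 to 0.17) and -0.20 (-1.27 to 0.82), and the wide interval in MC38 shows how little this depth can resolve there. The targets thus gave no shared direction.

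The coactivators and inhibitors were near 0. Yap1 gave 0.04 in CT26 (-0.03 to 0.12) and -0.10 in MC38 (-0.18 to -0.02), and Wwtr1 gave 0.04 and 0.01. Lats2 gave -0.15 (-0.22 to -0.09) and -0.11 (-0.25 to 0.03). Ajuba gave 0.07 and -0.12, and Amotl2 gave 0.09 and -0.05. In FPKM, Amotl2 was 7.29 in MC38 shGFP and 5.33 in MC38 shmaurka-1 although its fragments were 722 and 683, so the deposited level and the count differ for this gene and the reason was not tested. For these 5 genes, edgeR's adjusted p of the common change lay between 0.751 and 0.974.

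Other genes of the pathway did not all share the direction of the 10 genes between the lines. Of 17 Hippo core and upstream genes, all tested, 7 were called higher and 6 lower in CT26 (median log2 difference -0.11), and 4 and 9 under total-count scaling. Frmd6, a FERM protein upstream of the kinases, had 4667 and 4273 fragments in CT26 and 654 and 529 in MC38 (log2 difference 3.26 ± 0.11). Wwc1 (KIBRA), a scaffold that activates LATS, went the other way with 756 and 463 fragments in CT26 and 3290 and 3066 in MC38 (-2.09 ± 0.11). Under the knockdown 1 of the 17 fell, the protocadherin Fat1, with 13350 and 8466 fragments in CT26 and 3912 and 3396 in MC38 (common log2 fold change -0.36 ± 0.09, edgeR adjusted p = 0.00941). The log2 fold change of Fat1 was -0.54 in CT26 and -0.17 in MC38. Neither DESeq2 (adjusted p = 0.325) nor limma-voom (adjusted p = 0.0612) called Fat1.

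The remaining TEAD genes, vestigial-like cofactors, relatives of Amotl2 and Ajuba, and Ptpn14 were mixed as well. Ptpn14, higher in CT26, is counted again among the signature genes below. Of 9 genes, 4 were called higher in CT26 and 4 lower (median 0.15), and 3 and 4 under total-count scaling, and for the knockdown 0 were called by edgeR (0 at an unadjusted p under 0.05), 0 by DESeq2 and 0 by limma-voom. Tead3 followed Tead1 and Tead4, with 1237 and 1036 fragments in CT26 and 230 and 197 in MC38 (log2 difference 2.74 ± 0.15). Tead2 had 700 and 684 in CT26 and 2641 and 2408 in MC38 (-1.53 ± 0.11), the opposite direction. Vgll3, a cofactor that binds TEAD in place of YAP, had 2 fragments in each CT26 library and 689 and 865 in MC38.

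A further 17 genes belong to a published 22-gene YAP and TAZ signature from human tumors, whose 5 other genes are among the 10 described here. Of the 16 tested, 11 were called higher in CT26 and 4 lower under both scalings, with a median log2 difference of 1.15. More than 4-fold differences were 4 in each direction, beside 7.43% of all genes higher and 14.6% lower. Foxf2, a forkhead factor, had 1 and 0 fragments in CT26 and 2713 and 3052 in MC38, while Nuak2, a kinase of the AMPK family, had 176 and 138 in CT26 and 1 and 0 in MC38. Rbms3, an RNA-binding protein, had 5 fragments in each CT26 library and 295 and 365 in MC38. The signature genes beyond the 10 were therefore not all higher in CT26. Under the knockdown 1 rose, Gadd45a, a stress gene that p53 also induces, with 10230 and 13908 fragments in CT26 and 5760 and 7448 in MC38 (common log2 fold change 0.48 ± 0.09, edgeR adjusted p = 6.18e-05), a call that DESeq2 and limma-voom also made (adjusted p = 0.00119 and 0.00698).

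**Figure D3:**
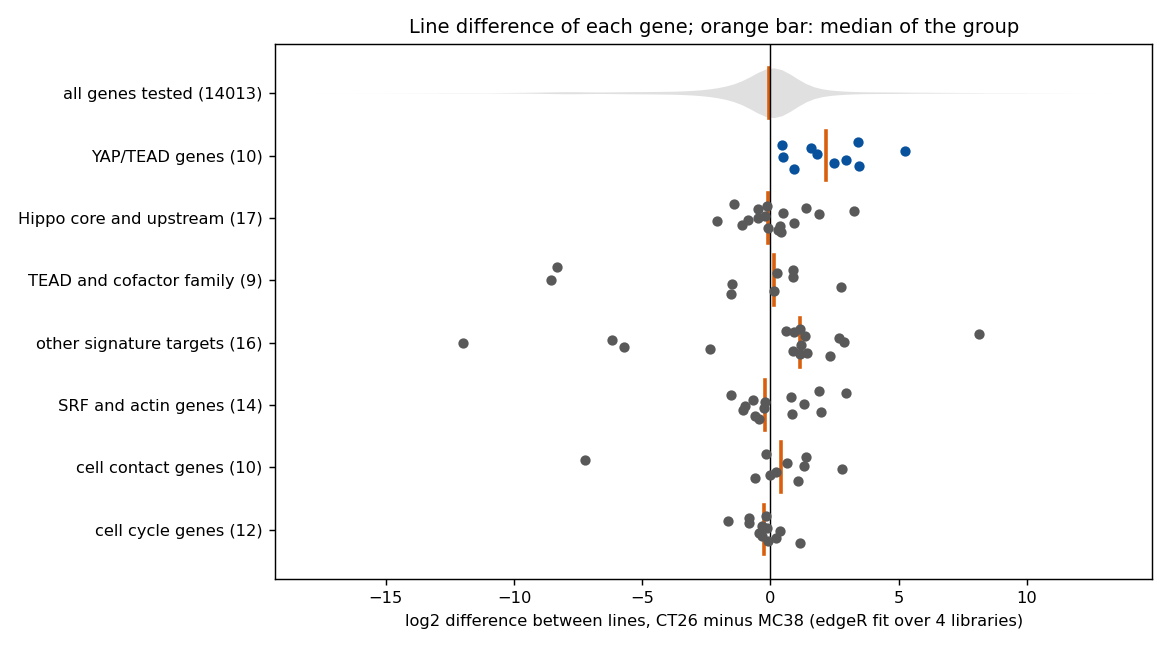
Log2 difference between lines (CT26 minus MC38, edgeR fit) of each tested gene, for the 10 YAP/TEAD genes, 6 lists of related genes and, as a density, all 14013 genes tested; orange bars are medians. All 10 genes lie right of 0 with a median of 2.15 and the other signature targets have a median of 1.15, while all genes have a median of -0.04; points beyond -5 or 8 are genes with at most 5 fragments per library in 1 line, whose fitted size is not well defined.

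Genes that respond to actin and SRF, a mechanical pathway that runs beside YAP, gave 6 higher and 4 lower in CT26 of 14 tested (median -0.22), and 6 and 6 under total-count scaling. The LIM protein gene Fhl2 (3013, 2706, 463 and 463 fragments), the tropomyosin gene Tpm1 (12677, 10340, 3431 and 3963) and the filamin gene Flna (56413, 55535, 19404 and 18400) were those with the widest gaps, at log2 differences of 2.96 ± 0.12, 1.97 ± 0.10 and 1.90 ± 0.09. Under the knockdown 1 of the 14 fell, the calponin gene Cnn2 (733 and 425 fragments in CT26, 1603 and 1205 in MC38, common log2 fold change -0.52 ± 0.13, edgeR adjusted p = 0.00408). DESeq2 and limma-voom did not call Cnn2 (adjusted p = 0.421 and 0.0510).

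Of 15 cell contact genes, 10 had enough counts to test, and 6 were called higher and 2 lower in CT26 (5 and 4 under total-count scaling). N-cadherin (Cdh2) had 2445 and 1914 fragments in CT26 and 486 and 314 in MC38, a log2 difference of 2.79 ± 0.12. It was also the 1 gene of the list called for the knockdown, with a common log2 fold change of -0.39 ± 0.12 (edgeR adjusted p = 0.0456), though not with DESeq2 or limma-voom (adjusted p = 0.712 and 0.243) nor in edgeR with DESeq2 size factors, a mean of at least 50 counts, no filter on low counts or no replicate block (edgeR adjusted p = 0.0529, 0.0779, 0.110 and 1). The nectins differed in opposite directions, Nectin2 with 1606 and 1685 fragments in CT26 and 807 and 788 in MC38 (1.38 ± 0.12) and Nectin3 with 5 in each CT26 library and 1039 and 886 in MC38. E-cadherin (Cdh1) and occludin (Ocln) were among the 5 genes with too few counts to test.

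Cell cycle genes were set beside the targets because growth and density move together in culture. Of 12 genes, 3 were called higher in CT26 and 6 lower (1 and 9 under total-count scaling), with Mcm6 at a log2 difference of -1.64 ± 0.10, Mcm4 at -0.82 ± 0.10 and Ccnb1 at 1.16 ± 0.10. Under the knockdown 3 rose in the common test, Mki67, Ccna2 and Top2a, which mark dividing cells. Mki67 had 8152 and 12672 fragments in CT26 and 14362 and 13497 in MC38, log2 fold changes of 0.75 and -0.06 (common 0.35 ± 0.09, edgeR adjusted p = 0.0118). Ccna2 gave 0.62 and 0.11 (common 0.36 ± 0.10, edgeR adjusted p = 0.0137) and Top2a 0.69 and -0.09 (common 0.30 ± 0.09, edgeR adjusted p = 0.0450). None of the 3 was called by DESeq2 (adjusted p between 0.692 and 1), by limma-voom (between 0.122 and 0.346) or by edgeR with a mean of at least 50 counts (between 0.0577 and 0.186), and Top2a also missed under total-count scaling, DESeq2 size factors and whole fragments (edgeR adjusted p = 0.0745, 0.0547 and 0.0505). With no replicate block edgeR called none of them (0 of all genes, 3 at an unadjusted p under 0.05). In CT26, where these genes differed by over 1.5-fold, the targets Ankrd1, Cyr61 and Ctgf gave log2 fold changes of 0.19, 0.06 and -0.01. Ccnb1, the mitotic cyclin B1 gene, gave 0.76 in CT26 and -0.31 in MC38, and its common value of 0.23 ± 0.10 did not pass (edgeR adjusted p = 0.289). Whether the cell cycle genes changed differently in the 2 lines was not tested, since each line has 1 pair.

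The genes with a pattern most like that of Ctgf were sought among 11545 genes, as the smallest Euclidean distance in centred log2 CPM (counts scaled to library size) over the 4 libraries. They were a ribosomal protein pseudogene (Rps2-ps10, distance 0.131, uncertain because it shares sequence with its parent gene), 9030617O03Rik (0.138), Tnfaip3 (0.140), which restrains NF-kB signaling, Sdk1 (0.203) and Tmem179 (0.212). Tnfaip3 had 3653 and 3605 fragments in CT26 and 127 and 121 in MC38. With 4 libraries, likeness means little more than a line difference of the same size.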

How the data were processed

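RNA-seq was read from 4 libraries. Per the labels, the authors used Trimmomatic 0.36, HISAT2, Cufflinks 2.2.1 and Cuffdiff. The deposited files give estimated counts and FPKM for 51905 genes. The estimated counts had been scaled by the authors: 97.0% to 97.6% of nonzero values were whole multiples of 1 step per library (within 0.05), and division by the step gave the fragments printed here. The submitters' notes name GRCm39, yet 99.8% of 19369 gene loci overlap GRCm38 and 9.24% GRCm39, so RefSeq GRCm38.p6 positions are given. Use of strand in counting is not given in the sources used here.

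Deposited counts were rounded and fitted in edgeR 4.0.16 (R 4.3.3) with line and virus as terms (TMM, mean of at least 10 counts, quasi-likelihood test, Benjamini-Hochberg over 14013 genes). The line term is the block that pairs each shmaurka-1 library with its shGFP library. The fit has 1 residual degree of freedom and borrows its spread wholly from all genes (infinite prior degrees of freedom). Its p-values therefore rest on a spread pooled over genes in these libraries, not on a gene's own spread or on replicate cultures. For the line difference of Amotl2, limma-voom gave an adjusted p of 1.07e-15, beside 3.96e-204 with edgeR. Fold changes within a line used TMM-scaled deposited counts plus 1 count, with exact conditional binomial 95% intervals on fragments. Genes with at most 3 fragments in a group are given as fragments. The 10 genes and all lists were chosen with earlier results of these data known. All 10 genes are named, and from each list the genes called for the knockdown (at most 4) and the 3 with the widest line difference among genes with a mean of at least 50 counts. DESeq2 1.42.0 and limma 3.58.1 were alternatives, as were other scalings, filters, added counts and FPKM. The edgeR fit was also run on simulated counts with known changes. Those counts were drawn with a spread common to all genes, so they cannot show how well that spread holds for each gene.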

Additional observations from a re-analysis of the deposited data

Results flagged for a closer look

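For 4 of the 10 genes the knockdown gave a positive log2 fold change in CT26 and a negative value in MC38. The difference between lines (CT26 minus MC38) was 0.27 for Cyr61 (0.06 and -0.21), 0.19 for Ajuba (0.07 and -0.12), 0.14 for Yap1 (0.04 and -0.10) and 0.13 for Amotl2 (0.09 and -0.05). Each line has 1 library per virus, so these differences were not tested. All 4 are small beside the change of Aurka.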

How the results depend on the processing

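Over 415 alternative values, none of the called values changed sign. Among uncalled knockdown values, rounded as printed, 5 changed sign (Ctgf in CT26 with FPKM at both pseudocounts, Wwtr1 in MC38, and Ajuba and Cyr61 in the common change). All 5 were within 0.06 of 0 on the log2 scale before and after. Wwtr1 in MC38 also came to -0.00 with DESeq2 size factors, which was not counted. All 10 genes stayed higher in CT26 in sign under every setting, and 5 were more than 4-fold higher under TMM, total counts, shGFP alone and shmaurka-1 alone (the size of 4-fold and its 3 alternatives were chosen after seeing the data). Total-count scaling ended the line call of Yap1 and Wwtr1 and called 1 of the 10 genes (Tead1) for the knockdown. The other scalings and filters and limma-voom and DESeq2 called 0, though DESeq2 gave no adjusted p for Ctgf. The number of genes called for the knockdown, 334 with edgeR as reported, was 216 with a mean of at least 50 counts, 136 with limma-voom, 53 with DESeq2 and 0 in edgeR with no replicate block (unadjusted p under 0.05 for 3 genes). Under the filter of 50 counts, genes past the folds fell to 684 in CT26 and 316 in MC38. The cause was not tested beyond the smaller number of genes left by the filter. The line is the block that pairs the libraries, with 1 pair in each line. Leaving out a library left no residual degrees of freedom, so no test was made without it; values within each line and each virus stand in the text. Depth limits Ctgf in MC38.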
